A study of Sus scrofa with 6 samples.

Results

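The enzymes of lower glycolysis and of lactate formation were examined in IPEC-1 cells, a non-transformed epithelial line from the small intestine of a newborn piglet. The members were 9 genes, namely ALDOC, TPI1, GAPDH, PGK1, PGAM1, ENO1, PKM, LDHA and LDHB, and their probe sets were taken from the platform annotation by the exact gene symbol. An Affymetrix probe set is a group of short oligonucleotides that together measure 1 transcript. In all, 22 of 24123 probe sets carried a member's symbol. Of these, 13 were ordinary probe sets and 9 were control probe sets for GAPDH that the manufacturer places on the array. They covered 8 of the 9 genes, and no value is given for PGAM1, since no probe set had its symbol.

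RNA was hybridized to 6 GeneChip Porcine Genome Arrays, 3 from air-liquid interface (ALI) cultures and 3 from submerged cultures (SMC). In ALI the apical side of the cells was covered by a thin film of liquid, whereas in SMC it lay under a column of medium. Cells of both groups grew on the porous membrane of ThinCerts inserts in DMEM/F12 medium with epidermal growth factor and a mix of insulin, transferrin and selenium, with fetal bovine serum that was reduced and then left out. Each group had 1 array each at passages P109, P111 and P113 (replicates 1, 2 and 3), so that the replicates are passages of 1 cell line and p-values measure the spread between them. The study asked whether metabolic functions change when cells grow at ALI in place of SMC.

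Glycolysis splits glucose into pyruvate. In its lower part, aldolase makes triose phosphates, triosephosphate isomerase interconverts them, and the enzymes from GAPDH to pyruvate kinase carry the triose to pyruvate, with ATP formed by phosphoglycerate kinase and pyruvate kinase. Lactate dehydrogenase, a tetramer of A and B chains, reduces pyruvate to lactate and returns NAD+ to GAPDH. Most of these genes are textbook targets of hypoxia-inducible factor, and intestinal epithelium works at a low and changing oxygen supply.

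All values are log2 signals, and a difference of 1 is a change of the signal by a factor of 2. Differences are given as ALI minus SMC. Calls rest on limma, at a Benjamini-Hochberg adjusted p below 0.05 over the 23999 probe sets that are no controls. The array medians lay between 6.34 and 6.39. A signal in the lowest 25% of an array, below 4.52 to 4.62, is here named dim and is not shown to be above background. In bulk RNA, fewer cells that express a gene and less RNA per cell cannot be told apart.

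Of the 13 ordinary probe sets, 9 were lower in ALI, 0 were higher (0 also at an unadjusted limma p under 0.05) and 4 were not called. Over all probe sets tested, 1.23% were called lower (296) and 0.663% were called higher (159). By the probe set with the highest mean, 6 of the 8 measured genes fell, ALDOC, TPI1, GAPDH, PGK1, ENO1 and LDHA, whereas PKM and LDHB were not called. Among 6765 genes, 1.51% were called lower and 1.02% higher. The median difference was -1.62 for the 8 member genes and 0.01 for all genes. All SMC arrays lay above all ALI arrays in 9 of the 13 ordinary probe sets and in 9.27% of all probe sets. These were the 9 called ones, and a call on the same arrays favours such a separation. Each of the 9 changed by at least 1.5-fold. With the passage as a block, the paired fit called the same count of 9 probe sets lower and 0 higher, where 3.32% of all probe sets were called lower.

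**Figure D1:**
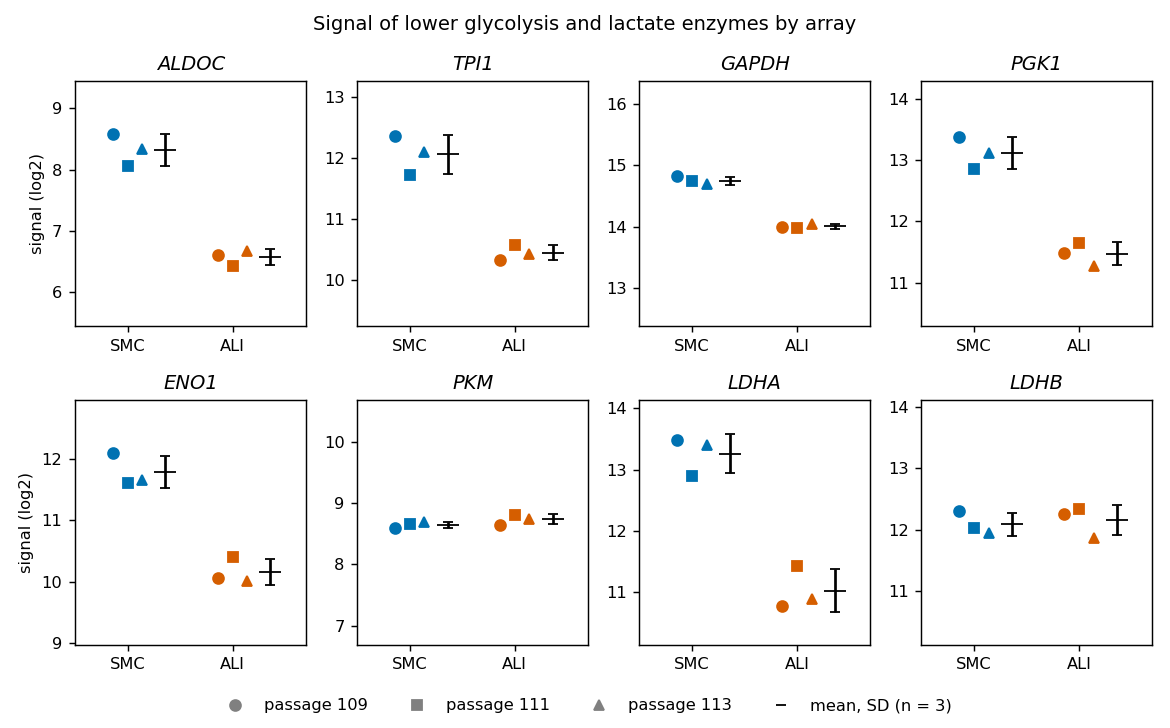
Log2 signal of 8 genes, 1 probe set per gene, on each of the 6 arrays; blue points are SMC, orange points are ALI, the point shape gives the passage, and the black bar is the mean with SD (n = 3). Each panel spans 4 log2 units. The groups do not overlap for ALDOC, TPI1, GAPDH, PGK1, ENO1 and LDHA, and they overlap for PKM and LDHB.

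ALDOC is aldolase C, the isoform best known from brain. Its signal was 6.61, 6.43 and 6.68 in ALI replicates 1, 2 and 3 and 8.58, 8.06 and 8.33 in the SMC replicates. Every ALI array thus lay below every SMC array, with a gap of 1.38 between the nearest ones. The means were 6.57 ± 0.129 in ALI and 8.32 ± 0.263 in SMC (SD, n = 3). ALDOC fell by 1.75 on the log2 scale (SE 0.149, 95% interval -2.09 to -1.41, limma adjusted p = 0.00292), and its SMC signal was 3.37 times that in ALI. Within passages P109, P111 and P113 it differed by -1.97, -1.63 and -1.66, a narrower range than in TPI1, PGK1, ENO1 or LDHA.

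TPI1, triosephosphate isomerase, lets all carbon of the split hexose enter the lower pathway. The signal reached 10.34, 10.58 and 10.43 in ALI and 12.36, 11.72 and 12.10 in SMC. The lowest SMC array, that of passage P111, was 1.13 above the highest ALI array, which came from the same passage. TPI1 fell by 1.61 (SE 0.166, 95% interval -1.99 to -1.23, adjusted p = 0.00447), a 3.05-fold difference.

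PGK1, phosphoglycerate kinase, catalyses the first step that yields ATP. On the ALI arrays it measured 11.49, 11.65 and 11.27, and on the SMC arrays 13.37, 12.85 and 13.11. The ranges were separated by 1.20. PGK1 fell by 1.64 (SE 0.158, 95% interval -2.00 to -1.28, adjusted p = 0.00376).

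ENO1, alpha-enolase, turns 2-phosphoglycerate into phosphoenolpyruvate. Values of 10.06, 10.40 and 10.01 in ALI stood against 12.10, 11.62 and 11.66 in SMC. ENO1 fell by 1.64 (SE 0.165, 95% interval -2.02 to -1.26, adjusted p = 0.00442). The SMC signals of PGK1 and ENO1 were both 3.11 times those in ALI, close to the 3.05 of TPI1.

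LDHA codes for the A chain of lactate dehydrogenase, which prevails in tissues that form lactate. Its only probe set gave 10.78, 11.42 and 10.88 in ALI and 13.49, 12.89 and 13.41 in SMC. The means were 11.03 ± 0.344 and 13.26 ± 0.325 (SD, n = 3). No other member had so large a difference, -2.24 (SE 0.211, 95% interval -2.72 to -1.75, adjusted p = 0.0035), and the ALI signal was 21.2% of that in SMC. On the same arrays the difference of LDHA minus that of TPI1 was -0.63, and minus those of PGK1 and ENO1 it was -0.60 each, below 0 in every passage and with no overlap of the groups. Against ALDOC it was -0.49, with overlap. Over these 4 pairs the two-sided exact permutation p was 0.1 (0.133 adjusted) for the first 3, the smallest that 3 arrays against 3 allow, and 0.3 for ALDOC. The 4 pairs were not among the planned comparisons, and LDHA was the member with the largest difference. The direction was thus set by the choice of gene, and these p-values are a description. LDHA also had the widest spread of the called genes within ALI, where the array of passage P111 was the highest.

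PKM, pyruvate kinase of muscle type, catalyses the last step to pyruvate and makes both the M1 and the M2 splice form, which the annotation of the probe sets does not separate. The brighter of its 2 probe sets measured 8.65, 8.81 and 8.74 in ALI and 8.60, 8.65 and 8.69 in SMC. The groups overlapped, and the difference was 0.08 (95% interval -0.14 to 0.31, adjusted p = 0.758). For the other probe set the difference was -0.04 (95% interval -0.33 to 0.24, adjusted p = 0.915), with a dim signal on 4 of 6 arrays. The interval of the brighter probe set does not reach the size of change seen in any called member.

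LDHB codes for the B chain, which prevails in tissues that use lactate, such as the heart. Its signal was 12.26, 12.34 and 11.87 in ALI and 12.30, 12.03 and 11.94 in SMC. The arrays of both groups were mixed, with the lowest and the highest value both in ALI. The difference was 0.07 (SE 0.155, 95% interval -0.29 to 0.43, adjusted p = 0.889). In the RefSeq gene table used here (assembly Sscrofa11.1) the symbol LDHB belongs to 2 genes, and the probe set is annotated to 1 of them.

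**Figure D2:**
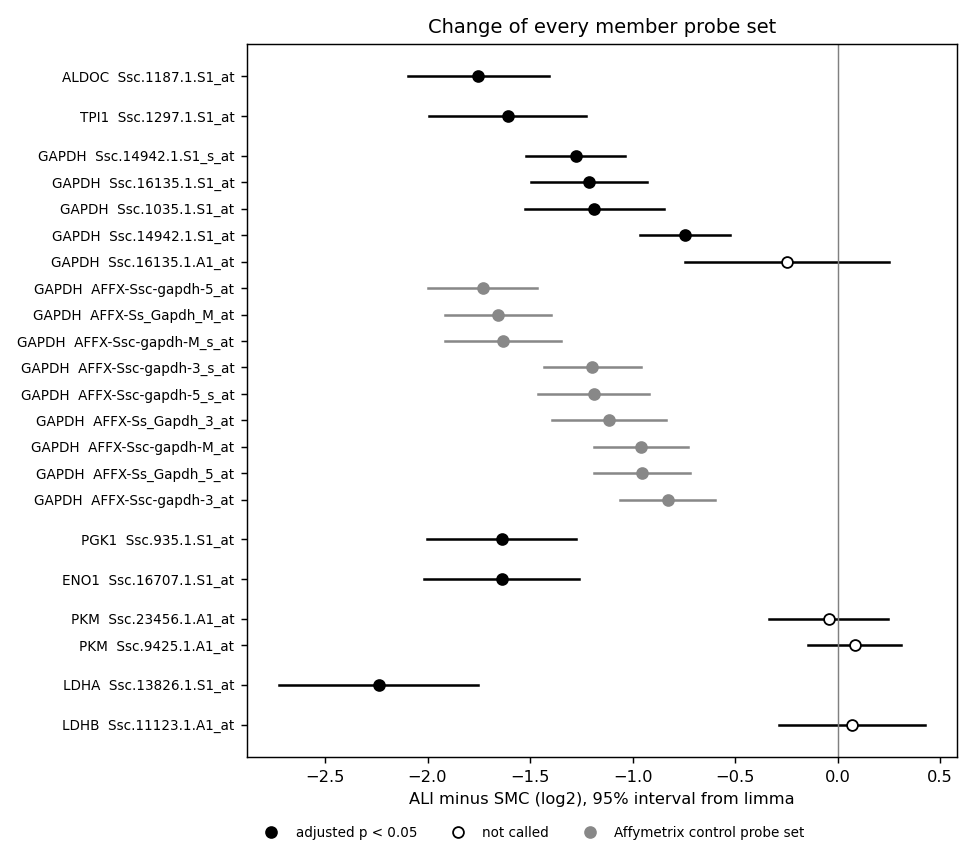
ALI minus SMC (log2, x axis) with its 95% interval from limma for each of the 22 member probe sets (y axis), in the order of the pathway. Filled points are called and open points are not, and grey points are the 9 GAPDH control probe sets, tested in a fit that kept the controls. The 18 filled points lie left of 0, from -2.24 to -0.74.

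GAPDH, the dehydrogenase that forms NADH in glycolysis, is often used as a loading reference for RNA and protein. The array held 14 probe sets for it, and 13 of them were lower in ALI, among these 4 of the 5 ordinary ones. The brightest, an ordinary one, measured 13.99, 13.98 and 14.05 in ALI and 14.82, 14.74 and 14.69 in SMC. Its replicates agreed closely (SD 0.0387 in ALI and 0.0678 in SMC), and no SMC array came nearer than 0.64 to an ALI array. GAPDH fell by 0.74 here (SE 0.0964, adjusted p = 0.0107), 1.68-fold, the smallest difference among the called members. This call was lost without ALI replicate 1 (adjusted p = 0.0634) or without SMC replicate 2 (adjusted p = 0.061), while the difference hardly moved, at -0.74 and -0.75.

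The other ordinary GAPDH probe sets gave larger differences. The _s_at probe set of the same transcript cluster (mean SMC signal 14.22) fell by 1.28 (adjusted p = 0.00253), a dimmer one (6.94) by 1.21 (adjusted p = 0.00442) and another (8.26) by 1.19 (adjusted p = 0.00915). The last of these calls was lost without ALI replicate 1 (adjusted p = 0.0547). These 3 differences were larger than that of the brightest probe set by 0.53, 0.47 and 0.44, and for each the gap between the probe sets did not overlap between culture types. Over the 5 pairs of probe sets compared within GAPDH and PKM, each of these 3 had a two-sided exact permutation p of 0.1 (0.167 after Benjamini-Hochberg adjustment), and 0.1 is the smallest p that 3 arrays against 3 allow. The fifth, which shares its source sequence record with the probe set at 6.94, was dim on all 6 arrays, its groups overlapped, and its difference of -0.25 was not called (95% interval -0.75 to 0.25, adjusted p = 0.667).

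The 9 control probe sets, which target the 3′ end, the middle or the 5′ end of the GAPDH transcript, were all lower in ALI when the controls were kept in the fit. Their differences ran from -1.73 to -0.83, with adjusted p from 8.55e-04 to 0.00772. The smallest of these calls was lost without ALI replicate 1 (-0.81, adjusted p = 0.0505). In the first set of 3 the difference grew from the 3′ end (-0.83) over the middle (-0.96) to the 5′ end (-1.73). In the set marked _s_at, 3′ and 5′ ends changed alike (-1.20 and -1.19) and the middle changed by -1.63, and the set with the prefix Ss_Gapdh gave -1.11, -1.66 and -0.95. The size of the GAPDH change thus depended on the probe set, from -1.73 to -0.74 among the 13 called ones, all of which fell.

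The 3′ minus 5′ signal, a common measure of RNA integrity, was taken for the same controls. In the first set it was 1.495 ± 0.177 in ALI and 0.594 ± 0.0703 in SMC (SD, n = 3), a difference of 0.90. The _s_at set showed 0.315 ± 0.104 and 0.322 ± 0.036, and the Ss_Gapdh set 0.570 ± 0.0468 and 0.731 ± 0.149. Of the 7 control pairs of other genes, 5 had a larger 3′ minus 5′ signal in ALI and 2 a smaller one. The brighter actin pair moved the same way as the first GAPDH set, by 0.61 (2.93 ± 0.230 in ALI and 2.32 ± 0.0719 in SMC), the IRP pair moved by -1.17, and the other 5 by -0.13 to 0.13. Over all arrays the brighter actin pair had means of 14.47 (3′) and 11.85 (5′). Among the 5, the ef1a pair was as bright (14.51 and 14.16) and the dimmer actin pair lay at 7.93 and 7.57. The Angioten, CTLA4recp and ErythRec pairs, at 5.01 to 6.58, lay near or below the array medians. The part of RNA quality in the GAPDH values was not tested.

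**Figure D3:**
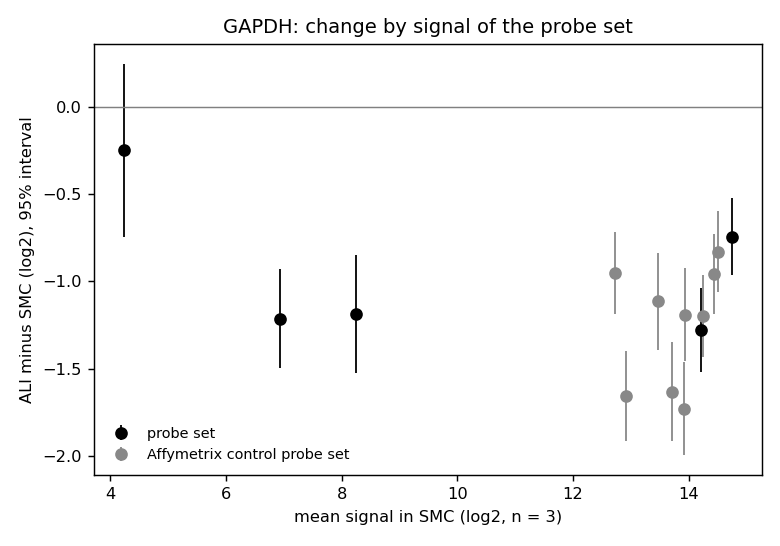
Difference between ALI and SMC (log2, y axis, with 95% interval from limma) of the 14 GAPDH probe sets by their mean signal in SMC (log2, n = 3, x axis). Black points are ordinary and grey points are control probe sets. Among the 5 probe sets with a mean above 14, the difference was smallest, -0.74, in the brightest.

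Brightness went along with the size of the GAPDH difference at the top of the scale. The 5 probe sets with a mean SMC signal above 14 differed by -1.28, -1.20, -0.96, -0.83 and -0.74 in order of rising signal. The 6 between 12 and 14 ranged from -1.73 to -0.95 with no such order. On SMC replicates 1 and 2, the brightest GAPDH probe set held the highest value of the whole array, and the highest values of the 6 arrays lay between 14.71 and 14.87. Whether an upper limit of the signal narrowed these differences was not tested.

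Isoforms were compared next, as the difference of 1 gene minus that of its relative on the same arrays. LDHA and LDHB, which form the same enzyme, moved apart. LDHA minus LDHB changed by -2.31 between ALI and SMC, by -2.67 (passage P109), -1.78 (passage P111) and -2.46 (passage P113) within passages. The values of the 2 groups did not overlap (two-sided exact permutation p = 0.1, the smallest that 20 regroupings allow, and 0.1 after adjustment over 4 isoform pairs). Paired by passage, the exact sign-flip test gave its smallest possible p of 0.25.

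PGK1 and ENO1 have relatives that are restricted to certain tissues. PGK2, the testis form, was not called at 0.19 (95% interval -0.10 to 0.49), with a dim signal on 3 of 6 arrays. ENO2, the neuronal form, differed by 0.08 (95% interval -0.19 to 0.34) and ENO3, the muscle form, by 0.16 (95% interval -0.07 to 0.39). As PGK2 is not shown to be above background there, its comparison with PGK1 is not given. ENO1 minus ENO2 changed by -1.71 between ALI and SMC and ENO1 minus ENO3 by -1.80. Both pairs had non-overlapping groups and an exact permutation p of 0.1. ENO2 (5.69 in ALI and 5.61 in SMC) and ENO3 (5.20 and 5.04) had signals below the array medians. As ENO1 was already called with no overlap, the outcome for both pairs followed largely from ENO1 and is a description.

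The list of relatives of the members held 12 genes, of which 7 were measured, with PGK2, ENO2 and ENO3 among these. None was called in either direction in limma (1 higher and 0 lower at an unadjusted p under 0.05), and their median difference was 0.16. The farthest from 0 was BPGM, bisphosphoglycerate mutase, at 0.66 (adjusted p = 0.155). PGAM2, the muscle phosphoglycerate mutase, differed by 0.20 (adjusted p = 0.394), and LDHD, a mitochondrial D-lactate dehydrogenase, by 0.07 (adjusted p = 0.857). LDHC of the testis was dim on all 6 arrays. Aldolases A and B and the liver-type pyruvate kinase PKLR were not analysed here, as no probe set carried their symbols.

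Within passages, the 9 called probe sets kept their direction but not their size, whereas 3 of the 4 others changed sign. LDHA differed by -2.71 at passage P109, by -1.47 at passage P111 and by -2.54 at passage P113. TPI1 gave -2.02, -1.13 and -1.68, ENO1 gave -2.04, -1.22 and -1.65, and PGK1 gave -1.88, -1.20 and -1.84. In all these genes passage P111 had the smallest difference.

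**Figure D4:**
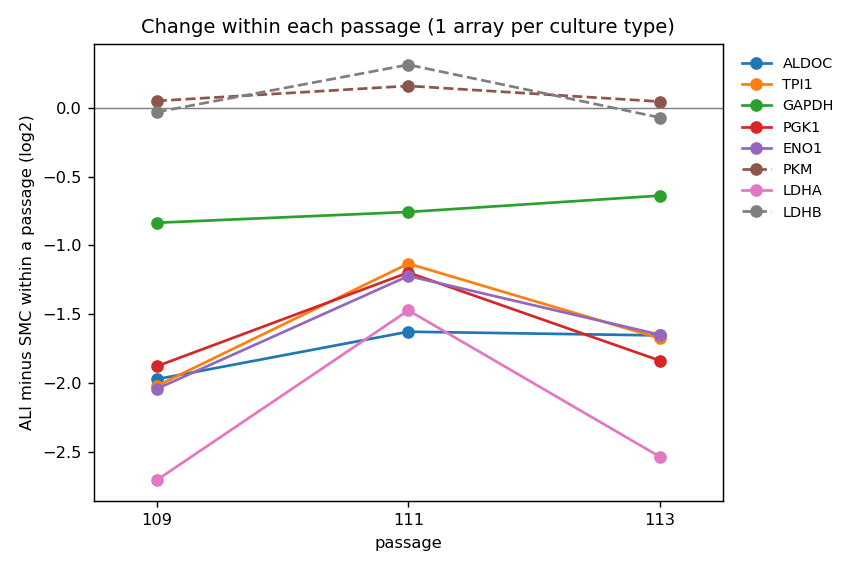
ALI minus SMC within each passage (log2, y axis), 1 array per culture type and passage, for 8 genes by 1 probe set each. LDHA, TPI1, PGK1 and ENO1 come nearest to 0 at passage P111, while PKM and LDHB (dashed) stay between -0.07 and 0.31.

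Passage P111 gave the smallest difference in 8 of the 9 called probe sets and in 7 of the 9 GAPDH controls, and passage P109 gave the largest in 8 of the 9 called ones. Both cultures took part in this. SMC replicate 2 was the lowest SMC array in 7 of the 9 probe sets and ALI replicate 2 the highest ALI array in 6, while SMC replicate 1 was the highest SMC array in all 9. Of these 9 probe sets 4 measure GAPDH, as do the controls, so that the counts repeat 1 gene. For the largest difference at passage P109 and for the order of the arrays, no share over all probe sets called lower is given here. The medians over the 9 called probe sets were -1.88, -1.20 and -1.65 in passages P109, P111 and P113. Over all 296 probe sets called lower, the medians were -0.96, -0.93 and -0.87, and passage P111 was the smallest in 108 of them (36.5%). With 1 array per culture type in each passage, the size of a passage difference has no replicate check.

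The neighbouring steps of glucose use were described by lists of genes. In upper glycolysis, 2 of 9 measured genes fell, 0 rose, and the median difference was -0.02. A further 6 of the 15 listed genes, HK2 among them, were not measured. All SMC arrays lay above all ALI arrays in 4 of the 9 genes and in 9.27% of all probe sets. The list mixes isoforms of the same step, such as PFKP, dim on all 6 arrays. Minor isoforms of the members form a list of their own, so the medians of the 2 lists are not like for like. PGM1, phosphoglucomutase, which links glycogen with glycolysis, fell by 1.57 (SE 0.184, adjusted p = 0.00759). GPI, which converts glucose 6-phosphate to fructose 6-phosphate, fell by 1.22 (SE 0.168, adjusted p = 0.0141), and this call was lost without ALI replicate 1 (difference -1.17, adjusted p = 0.0766). With the passage as a block 4 genes fell, with PFKL, the liver phosphofructokinase (-0.72, adjusted p = 0.0204 with the block), and HK1, hexokinase 1 (-0.61, adjusted p = 0.0137 with the block), besides these. PFKM, the muscle phosphofructokinase, differed by -0.02 (adjusted p = 0.961).

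**Figure D5:**
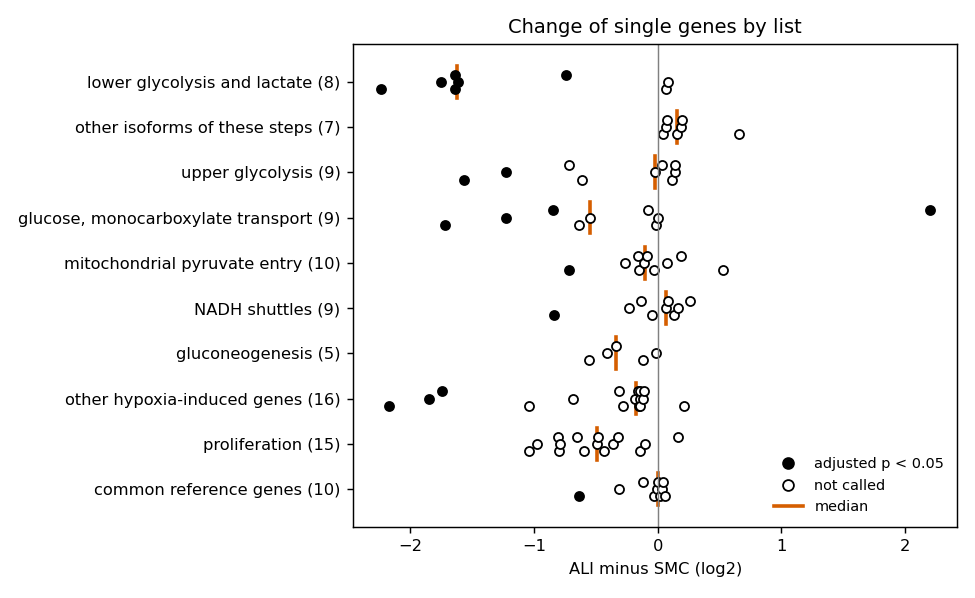
ALI minus SMC (log2, x axis) of single genes, 1 point per gene, in 10 lists (y axis, number of measured genes in brackets); filled points are called in limma, open points are not, and orange bars are medians. The median of the member genes is -1.62, and the medians of the other lists lie between -0.54 and 0.16. Minor isoforms of the members form a list of their own, while other lists include isoforms that are dim. Called genes of other lists, such as ERO1A (-2.17) and PGM1 (-1.57), lie in the range of the called members, and 1 called gene, EMB, rose.

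Of 9 genes for glucose and monocarboxylate transport, 3 fell and 1 rose, with a median of -0.54. SLC2A3, the high-affinity glucose transporter GLUT3, fell by 1.72 (SE 0.168, adjusted p = 0.00393), and SLC2A2, the transporter GLUT2, fell by 1.23 (SE 0.143, adjusted p = 0.00759). SLC2A5, a fructose transporter, fell by 0.85 (adjusted p = 0.0347), and this call was lost without any 1 of 5 arrays, all but ALI replicate 2 (differences -0.90 to -0.73, adjusted p 0.0624 to 0.14). The difference of SLC2A1, the transporter GLUT1, was -0.64 (adjusted p = 0.208). EMB, embigin, a partner protein of monocarboxylate transporters, rose from 3.83 in SMC, a dim signal on all 3 arrays, to 6.03 in ALI (adjusted p = 9.55e-04), so that the size of its change is not settled, and its second probe set differed by 0.51 (adjusted p = 0.0918). The lactate exporter SLC16A3 was dim on all 6 arrays, and SLC16A1 was not analysed here.

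Pyruvate and NADH also have routes into mitochondria. Of 10 genes for mitochondrial pyruvate entry 1 fell, PC, pyruvate carboxylase (-0.71, adjusted p = 0.0405), and the median was -0.10. MPC1, a subunit of the mitochondrial pyruvate carrier, differed by 0.53 (adjusted p = 0.0727) and passed with the passage as a block (adjusted p = 0.0352). Of 9 genes of the NADH shuttles 1 fell, GPD2, the mitochondrial glycerol phosphate dehydrogenase (-0.83, adjusted p = 0.0399), with a median of 0.07. Its other probe sets differed by -1.41 (adjusted p = 0.00595) and by -0.13 (adjusted p = 0.617). The call at -1.41 was kept whichever single array was left out (adjusted p up to 0.0369). Both PC and the brightest probe set of GPD2 lost their call without any 1 of 5 arrays. PC kept it without ALI replicate 3 and this GPD2 probe set without SMC replicate 2 (PC -0.77 to -0.58, adjusted p 0.072 to 0.187, and GPD2 -0.88 to -0.69, adjusted p 0.0704 to 0.161). In gluconeogenesis 0 of 5 genes passed in limma (0 at an unadjusted p under 0.05), with a median of -0.34, and SLC37A4 (-0.56, adjusted p = 0.452) and PCK2 (-0.41, adjusted p = 0.438) lay farthest from 0.

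Beyond glycolysis, 3 of 16 measured genes in a list of other hypoxia-induced genes fell and 0 rose, with a median of -0.17. Of the 24 symbols listed, 8 were not measured, BNIP3, NDRG1 and EGLN3 among them. The list also holds HIF1A, EPAS1 and ARNT, which are subunits of hypoxia-inducible factors. ERO1A, an oxidase of the endoplasmic reticulum, fell by 2.17 (adjusted p = 0.00521), and P4HA2, a collagen prolyl hydroxylase, fell by 1.85 (adjusted p = 0.00305). ADM, adrenomedullin, fell by 1.75 (adjusted p = 0.0159), which was lost without ALI replicate 1 (-1.60, adjusted p = 0.0783) or SMC replicate 2 (-1.79, adjusted p = 0.0791). HIF1A, the oxygen-regulated subunit of the factor itself, differed by -0.15 at its brightest probe set (adjusted p = 0.626). Of its other 3 probe sets 1 was called lower (4.75 in ALI and 6.14 in SMC, -1.39, adjusted p = 0.0407), a call that was lost without any 1 of 5 arrays, all but SMC replicate 3 (-1.64 to -1.28, adjusted p 0.0538 to 0.102). VEGFA, a growth factor for vessels, differed by 0.21 (adjusted p = 0.631). With the passage as a block 4 genes of this list fell, with ANKRD37 besides ERO1A, P4HA2 and ADM. ANKRD37 differed by -1.04 (limma adjusted p = 0.255 without the block and 0.0131 with it).

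Among 10 common reference genes 1 fell and the median was 0.00. HPRT1 was that gene (-0.63, adjusted p = 0.0348), and its call was lost without any 1 of the 6 arrays (-0.71 to -0.56, adjusted p 0.0504 to 0.142). ACTB, beta-actin, had the same mean of 12.68 in both groups. Of 15 genes of proliferation, none passed in limma, and the median was -0.49. At an unadjusted limma p under 0.05, 9 were lower, and no share over all genes at that threshold is given here. With the passage as a block 7 fell, where 3.32% of all probe sets were called lower. The mean over these 15 genes was 7.88 to 8.14 on the ALI arrays and 8.18 to 8.90 on the SMC arrays. CCNA2, cyclin A2 (-1.04, adjusted p = 0.0542), and AURKA, a mitotic kinase (-0.98, adjusted p = 0.122), were the farthest from 0. In limma with the passage as a block both were called lower (adjusted p = 0.00513 for CCNA2 and 0.0145 for AURKA). Without SMC replicate 3, 4 of the proliferation genes were called lower. The part of proliferation in the member values was not tested.

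Markers of cell type were checked against the label of the line. The 8 epithelial markers, EPCAM among them at 13.39 in ALI and 13.32 in SMC, had a mean of 11.55 to 11.66 per ALI array and 11.55 to 11.81 per SMC array, and by 1 probe set per gene none was called (0 at an unadjusted limma p under 0.05). A second, dimmer probe set of the cadherin CDH1 was called lower (5.98 in ALI and 6.76 in SMC, -0.78, adjusted p = 0.0412), which was lost without any 1 of 5 arrays, all but SMC replicate 3 (-0.87 to -0.66, adjusted p 0.0561 to 0.157). Of 6 enterocyte markers none was called (1 lower at an unadjusted p under 0.05), their means were 5.06 to 5.20 and 5.17 to 5.36, and the fatty acid binding proteins FABP1 and FABP2 of mature enterocytes were dim on all arrays. Markers of fibroblasts and smooth muscle (0 of 7 called, 5.98 to 6.18 in ALI and 6.06 to 6.16 in SMC), immune cells (0 of 3, 4.67 to 4.77 and 4.66 to 4.76) and muscle and red blood cells (0 of 2, 7.28 to 7.60 and 7.04 to 7.21) were not called either, 0 of them at an unadjusted p under 0.05, and PTPRC, LUM, DCN and CKM were dim on all arrays. Other markers in these lists had signals above the array medians in both groups, TAGLN of smooth muscle at 10.12 in ALI and 10.17 in SMC, HBB of red blood cells at 10.49 and 10.05, PDGFRB at 7.55 and 8.05, and COL1A2 at 7.56 and 7.33. Of 4 endothelial markers (4.999 to 5.24 in ALI and 5.11 to 5.37 in SMC), CDH5 and KDR were dim on all arrays and PECAM1 was called lower (-0.50, adjusted p = 0.0448). PECAM1 lost its call without any 1 of the 6 arrays (-0.54 to -0.47, adjusted p 0.0792 to 0.149). Farthest from 0 in the lists without a call were CLDN7 (-0.38) and KRT18 (-0.19), VIL1 (-0.45) and APOA4 (-0.20), PDGFRB (-0.50) and COL1A2 (0.23), CD3E (0.09) and PTPRC (-0.08), and HBB (0.44) and CKM (0.21).

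The genes outside the members with the most similar profile were found by the root mean square distance between log2 profiles over the 6 arrays, each centred on its own mean, to the mean profile of the 8 member genes. This mean profile differed by -1.18 between ALI and SMC. It includes PKM and LDHB, which were not called, and its difference was smaller than those of ALDOC, TPI1, PGK1, ENO1 and LDHA. The distance depends on the size of a change too, so that genes with larger falls lie farther from this profile. The 5 nearest of all genes were TMPO, a protein of the nuclear lamina (distance 0.124), GPI (0.126), BCAT1, a transaminase of branched-chain amino acids (0.129), CEACAM16 (0.131) and DARS, the aspartyl-tRNA synthetase (0.138). Their differences lay between -1.22 and -0.94. The measure chose these genes, so that their differences are a description.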

How the data were processed

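RNA of 6 IPEC-1 cultures was measured on GeneChip Porcine Genome Arrays. According to the methods, the authors read the arrays with GCOS, checked them with arrayQualityMetrics and normalized them by GC-RMA with gcrma, which sets arrays to a common distribution, so that a shift of all transcripts could not be seen. GCOS 1.1.1 is named in the submitters' processing notes. The authors deposited log2 values of 24123 probe sets. They were used without further scaling and without detection calls. Arrays have no depth, and their number (3 per group) limits the precision.

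Without the 124 control probe sets, 23999 remained for a linear model in limma 3.58.1 (lmFit, eBayes; R 4.3.3) that held only the culture type. Calls were made at a Benjamini-Hochberg adjusted p under 0.05. The GAPDH controls were tested in a second fit that kept all controls. The scripts were tested on simulated data. Gene symbols came from the platform annotation: 1 symbol was given for 10069 probe sets, several for 198 and none for 13732. The probe set with the highest mean stood for each of 6765 genes.

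Pairs of probe sets were compared by two-sided exact permutation tests over arrays. Deviations from the group means of arrays of the same passage correlated at 0.34, 0.14 and 0.451 (passages P109, P111 and P113), and the labels give the shared passage, so the numbers pair the arrays. The calls still come from the fit without the passage, and the paired fit is given where it changed them. Arrays of other pairs correlated at -0.424 to 0.219. Alternatives were the passage as a block, filters at a mean of 4 and 6, quantile normalization, median scaling, an intensity trend, control probe sets kept, each array left out in turn, and the methods' t-test.

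Named are all members, up to 6 called genes of each list (the 2 farthest from 0 where none was called), ACTB and the 5 nearest profiles. PFKL, HK1, PFKM, SLC2A1, SLC16A3, MPC1, HIF1A, VEGFA, the other isoforms, CDH1, EPCAM, TAGLN and the dim marker genes were named besides, after their values were seen. So were PFKP, ANKRD37, EPAS1 and ARNT. The members and lists were chosen with earlier results of these data known. Promoter and protein sequences were not used here. The free-text description of the labels names liver, which was not used.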

Additional observations from a re-analysis of the deposited data

How the results depend on the processing

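No called value of a member changed its direction under any alternative run. Of 167 repeats of single probe set values without the methods' t-test, 164 stayed on the same side of the threshold, and 3 lost the call, all of them GAPDH probe sets with 1 array left out. Without single arrays, 7 to 9 of the 13 probe sets and 5 to 6 genes were called lower, 0 probe sets were higher, and LDHA minus LDHB ranged from -2.47 to -2.13. Of the 9 GAPDH controls, 8 to 9 were called without single arrays, an alternative chosen after seeing the data, as were the same repeats for pairs and lists. The methods' t-test put 9 probe sets below an unadjusted p of 0.05 and, after Benjamini-Hochberg adjustment over all probe sets, 0 (adjusted p of these 9 from 0.111 to 0.182). That test with the adjustment called 0 of all 23999 probe sets, and the cause was not tested. With the replicate block, 9 probe sets and 6 genes were lower, LDHA minus LDHB was -2.31, and no call of a member changed. Upper glycolysis went from 2 to 4 genes lower, the other hypoxia-induced genes from 3 to 4 and proliferation from 0 to 7. LDHB ran from -0.02 to 0.21 and was called under none of the settings. The filter at a mean above 6 removes the dim probe sets of GAPDH and PKM. Signals in the lowest 25% of an array and differences near the top of the scale limit what PKM, GAPDH and the dim isoforms can show, and 3 arrays per group cannot reach an exact permutation p under 0.1.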
